A study of Mus musculus with 41 samples.

Results

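Selenoproteins contain selenocysteine, an amino acid that is inserted at UGA, a codon that otherwise ends translation. The 10 selenoprotein genes described here were chosen by name as mRNAs that recode UGA: Gpx1, Gpx4, Selenow, Selenop, Selenok, Selenot, Selenof, Txnrd1, Txnrd2 and Msrb1. They are 10 of 24 mouse selenoprotein genes on the lists used here, 10 of 22438 genes with footprint counts and 10 of 55385 genes with RNA estimates, and all 10 passed the filter on low counts in every comparison. The study profiled ribosome footprints and RNA in mouse cells and tissues that lack Hbs1l or Pelo, which together rescue ribosomes stalled on an mRNA. It also profiled cells labelled as carrying a conditional deletion of Upf2, a core factor of nonsense-mediated decay (NMD). A total of 41 libraries, 30 of footprints and 11 of RNA, were analysed.

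Whole Hbs1l-/- embryos of the C57BL/6NJ strain and their wild type controls were taken at embryonic day 8.5, and several embryos were pooled for each of the 3 replicates per genotype. Cerebella were taken at postnatal day 14 from C57BL/6J mice, 1 cerebellum per replicate and 3 per genotype. Both cerebellar genotypes carried the Atoh1-Cre transgene, which drives recombination in granule cell precursors, and the mutants were Hbs1l cKO where the controls were Hbs1l+/+. By the study's strain table the mutants were Hbs1l fl/-, so that mutant cells outside the reach of Cre kept 1 working copy of the gene. Mouse embryonic fibroblasts (MEFs) of the C57BL/6 strain were primary cells, with 1 embryo per replicate. Mutant and control MEFs all carried the CAG-Cre ER transgene, whose recombinase is active throughout the cells once tamoxifen is added, and all were treated with tamoxifen. The MEF genotypes were Hbs1l cKO (Hbs1l-/-), Pelo cKO (Pelo-/-), Upf2 cKO (labelled Upf2-/-) and the transgene alone (control), and the same table gives all of them, like the Hbs1l cKO cerebella, the B6J allele of the tRNA gene n-Tr20 on both chromosomes. Footprints were profiled in 3 replicates of each MEF genotype, each pool of mutants with 3 control libraries, whose counts differ little between pools. RNA was profiled in 3 control, 3 Hbs1l-/-, 2 Pelo-/- and 3 libraries labelled Upf2-/-. The batches named in the labels follow these pools, so tissue and batch cannot be told apart between embryo, cerebellum and MEFs.

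To read UGA as selenocysteine, the ribosome needs a SECIS element, a stem-loop in the 3′ untranslated region, together with the SECIS-binding protein SECISBP2, the elongation factor EEFSEC and a dedicated tRNA. When selenium is short, the same codon is read more often as a stop, and the mRNA can then be degraded by NMD if a splice junction lies far enough downstream. Selenoprotein mRNAs differ widely in how far they are protected from this fate. The glutathione peroxidases, thioredoxin reductases and methionine sulfoxide reductase among the members use selenocysteine in their active sites to reduce peroxides, thioredoxin and oxidized methionine. Some enzymes of the same families do without it. HBS1L and PELO act on ribosomes that have stopped without a stop codon, and UPF2 links the UPF1 helicase to the exon junction complex that marks a splice site.

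The base after UGA and the distance from UGA to the last exon junction set the members apart, so the bases around the selenocysteine codon are shown for 6 members whose values carry the results below. They are given 5′ to 3′ on the coding strand from GENCODE M21 transcripts (GRCm38), with the codon, written TGA, in capitals.
Gpx1: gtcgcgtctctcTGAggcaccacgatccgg
Gpx4: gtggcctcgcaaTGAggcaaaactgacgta
Selenow: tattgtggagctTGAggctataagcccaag
Selenop: cttcaagccagcTGAtacttgtgtcttctg
Msrb1: caatcaagattcTGAatatttagcagctca
Txnrd1: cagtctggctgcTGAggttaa

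The base that follows TGA was G in 7 members, A in Selenof and Msrb1, and T in Selenop. In Selenow the codon is residue 13 of 88 (chr7:15920464-15920466, exon 2 of 6), and the last exon junction lies 243 bases further on. In Gpx1 it is residue 47 of 201 (chr9:108339451-108339453, exon 1 of 2), 105 bases before the only junction. In Gpx4 it is residue 73 of 197 (chr10:80054737-80054739, exon 3 of 7), 342 bases before the last junction. Selenop holds 10 such codons, the first at residue 59 of 380 (chr15:3274848-3274850, exon 2 of 5). In Msrb1 it is residue 95 of 116 (chr17:24740158-24740160, exon 3 of 5), 66 bases before the last junction. Txnrd1 has it as residue 498 of 499, just before the stop codon and in the last exon (chr10:82896037-82896039, exon 14 of 14), with no junction behind it. Of the 10 members, 7 have the TGA at least 55 bases before the last exon junction, a distance commonly taken as enough for NMD, and Selenok (5 bases), Selenof (28 bases) and Txnrd1 do not. These distances are those of the transcript with the selenocysteine codon that had the most TPM, and they differ between transcripts. Selenof-202, used here, held 34.5% of Selenof TPM with 28 bases, and Selenof-201, with 32.2%, has 78 bases, so Selenof could be placed in either class. Msrb1-201, with 12.9% of Msrb1 TPM, has 34 bases where Msrb1-202 has 66. The counts sum each coding sequence and hold no positions, so ribosomes before and after the UGA could not be separated.

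Footprint libraries held 2634480 to 7298812 counts in embryos, 10919139 to 22591768 in cerebella and 5782990 to 25607974 in MEFs, and RNA libraries held 22713643 to 86425762 estimated counts. Control MEF libraries with the same number in the 3 pools differed by little more than sampling noise (chi-square per gene 1.10 to 1.19, against 4.06 to 12.6 between other numbers), so the MEF comparisons share their control cells, and values of the 3 comparisons are not independent of each other. Hbs1l footprints fell in every Hbs1l mutant set, from 32.6–39.5 to 1.51–2.59 CPM (counts scaled to library size) in MEFs, and Pelo footprints fell from 31.8–38.4 to 2.00–2.98 CPM. Totals for Upf2 went against its label. Its footprints rose from 49.2–58.3 to 113–119 CPM (log2 fold change 1.09 ± 0.077, SE, adjusted p = 3.12e-06), and its RNA rose from 15.7–21.4 to 30–63.0 CPM (adjusted p = 0.00331), both by edgeR's quasi-likelihood test. These totals sum all exons and cannot show whether the floxed exons are gone. Transcripts annotated as NMD targets took 2.28–2.48% of all TPM, kallisto's length-scaled transcript abundance, in these libraries against 1.78–2.06% in controls. They took 1.97–2.1% in Hbs1l-/- and 1.69–1.82% in Pelo-/- libraries. The study itself reports that NMD transcripts and transcripts with retained introns accumulated in Upf2-/- cells, and describes this as specific to them. By transcript and the same test, Upf2-202 rose from 0.485–0.546 to 4.45–10.7 TPM (log2 fold change 3.77 ± 0.32, adjusted p = 0.00327). Upf2-201 was not called (0.71 ± 0.28, adjusted p = 0.214). The libraries labelled Upf2-/- are therefore named by their label only. Summed fibroblast markers took 20500–34600 CPM of MEF footprints, granule neuron markers 2760–4720 CPM of cerebellar footprints and visceral endoderm markers 11200–23400 CPM of embryo footprints, so markers of each labelled source were present. In bulk samples such as these, fewer cells of a type and less RNA per cell cannot be told apart.

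Footprint levels of the members, in CPM per kilobase of coding sequence, differed in order between the 3 sources. In control MEFs Selenof, an oxidoreductase partner of the endoplasmic reticulum, and Gpx1, the cytosolic glutathione peroxidase, led with 445–480 and 348–490, and their replicates overlapped. Msrb1, which reduces methionine sulfoxide, followed with 219–239, then Txnrd1, the cytosolic thioredoxin reductase, with 156–179, Selenot with 135–143, Selenow with 93.4–103, Gpx4 with 52.3–71.1 and Selenok with 26.9–28.3. Txnrd2, the mitochondrial thioredoxin reductase, had 5.67–5.96 and Selenop, the secreted selenium carrier, 4.04–5.39. At the lengths used, every neighbour in this MEF order below Gpx1 was separated from the next by its replicates. The length of a gene counted every base that is coding in any of its annotated transcripts. It was 843 bases for Gpx4, 1839 for Txnrd1 and 1915 for Txnrd2. Their selenocysteine transcripts with the most TPM have only 197, 499 and 527 codons, so that levels per length of those transcripts would be higher. Order and separation at other lengths were not tested.

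In control cerebella Selenow, a small thioredoxin-fold protein of muscle and brain, led with 695–1120 CPM per coding kilobase, above Selenof with 414–627. Selenot (231–314) and Selenop (161–259) came next and overlapped, as did Gpx4 (78.9–92.1) and Msrb1 (68.9–94.9) further down. Txnrd1 reached only 31.5–32.8 there. In control embryos Gpx1 led with 536–658, Selenof had 282–339, and Selenow (147–235), Selenop (154–188) and Selenot (132–175) overlapped. Selenop thus ranked last in MEFs but above the middle of the order in both tissues, and Selenow ranked first in the cerebellum but below the middle in MEFs. These are levels with no test.

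**Figure D1:**
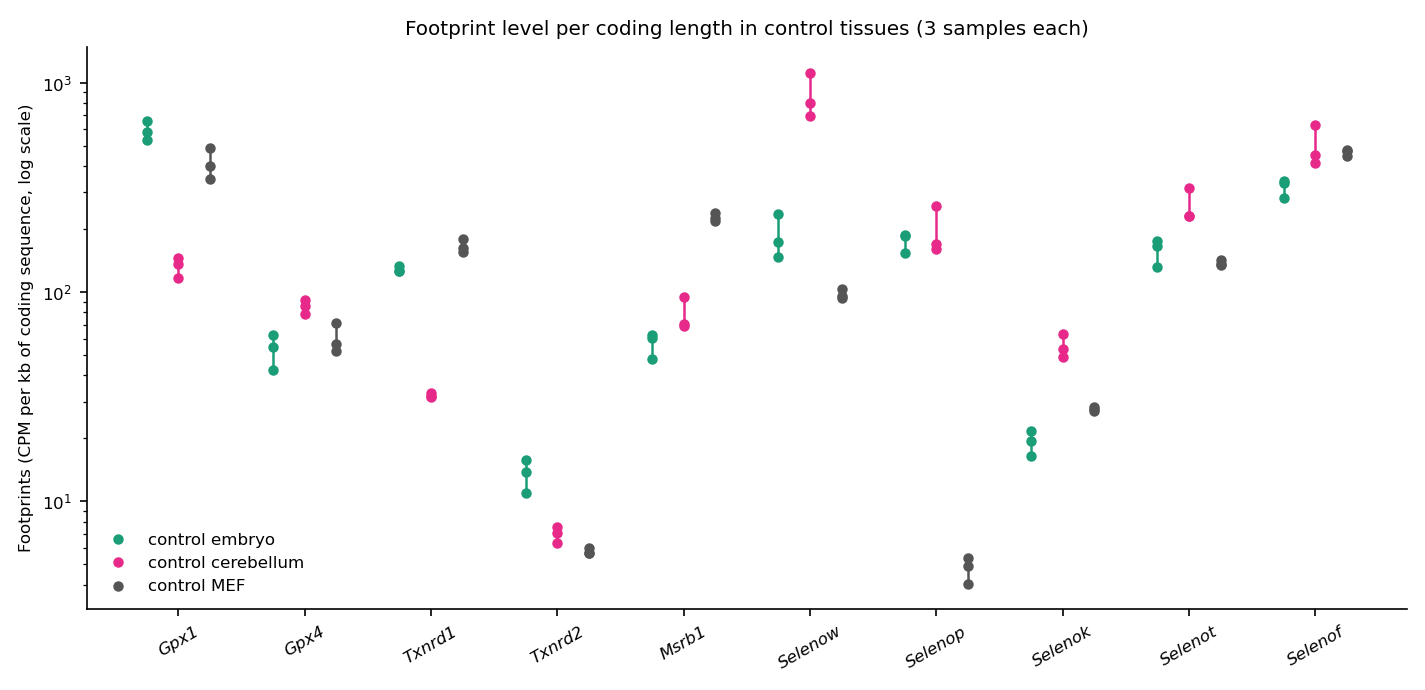
Footprint level of each member (log axis, CPM per kilobase of coding sequence) in control embryos, cerebella and MEFs; points are the 3 samples of each source, lines join their lowest and highest, and MEF points are means over the same-numbered controls of the 3 pools. Selenop sits at 4.04–5.39 in control MEFs and at 154–259 in control embryos and cerebella, and Txnrd2 is at most 15.7 in the control sets.

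Footprints were also set against RNA. In control MEFs the ratio of footprints per coding kilobase to TPM placed Gpx4, the phospholipid hydroperoxide glutathione peroxidase, at percentile 1.47 of 10551 genes, with 60.1 CPM per kilobase against 654 TPM. Selenow stood at percentile 5.93, Gpx1 at 9.64, Txnrd2 at 14.2 and Selenof at 16.2. The 517 TPM of Selenof include Selenof-203, annotated as a processed transcript, with 145–212 TPM in controls. Per coding transcript the Selenof ratio is therefore higher. Selenok stood at 3.77, but its 95.1 TPM sum all its transcripts, and the coding transcript Selenok-201 holds 17% of the TPM of the gene, so that per coding transcript its ratio is higher than this percentile shows. The other 4 members were near or above the middle, with Selenop at 46.5, Txnrd1 at 51.9, Msrb1 at 63.7 and Selenot at 83.5. The 2 kinds of library were made and counted differently, so these percentiles describe the deposited values and were not tested. They use the same coding lengths as the levels, which make the ratios of Gpx4, Txnrd1 and Txnrd2 lower than the length of the selenocysteine transcript would.

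RNA was compared first in MEFs labelled Upf2-/-, the genotype in which an effect on mRNAs with an early UGA was at issue. Of the 10 members, 2 rose and 1 fell, where 20.0% of 15983 genes were called in either direction at an adjusted p of at most 0.05. The median log2 fold change was -0.06 over the members and -0.02 over all genes. Selenow RNA was at 123, 107 and 139 CPM in the 3 controls and at 303, 264 and 322 CPM in the mutants. Every mutant library was above every control, and the 2.39-fold rise (log2 fold change 1.26 ± 0.13, SE, adjusted p = 9.92e-05) was kept under all 12 alternatives, with log2 values of 1.16 to 1.35. Gpx1 RNA was at 432, 344 and 403 CPM in controls and at 542, 513 and 529 CPM in mutants, again without overlap, as in 39.9% of all genes (log2 fold change 0.41 ± 0.12, adjusted p = 0.0327). The Gpx1 call was lost without control 2 (adjusted p = 0.117), control 3 (0.0862) or mutant 1 (0.0598), 2 (0.0672) or 3 (0.0524) and with counts scaled from TPM (0.0723).

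Selenok, a membrane protein of the endoplasmic reticulum, was the member whose RNA fell in these libraries, from 59.1, 54.0 and 59.8 to 45.4, 43.0 and 39.0 CPM (log2 fold change -0.45 ± 0.11, adjusted p = 0.0166). The Selenok call was lost without control 1 (adjusted p = 0.054), control 3 (0.074) or mutant 2 (0.0584). Msrb1 RNA was at 59.9–72.1 CPM in controls and 46.8–59.0 in mutants (-0.37 ± 0.13, adjusted p = 0.06) and Selenop RNA at 2.68–4.51 and 1.5–2.87 CPM (-0.73 ± 0.28, adjusted p = 0.087), and neither passed by edgeR. DESeq2 called both as lower (Msrb1 0.0365, Selenop 0.0462). Msrb1 also passed with the replicate block (0.0366), in one fit of all 11 RNA libraries (0.0242) and without mutant 3 (0.0323), and Selenop with no filter on low counts (0.0313) and without control 1 (0.0451). Gpx4, Selenot, Selenof and Txnrd1 RNA overlapped between groups, with log2 fold changes of -0.04, -0.16, 0.15 and -0.08. Txnrd2 had 0.30 ± 0.15 (adjusted p = 0.167). Of the 7 members with the TGA at least 55 bases before the last junction, 2 rose and none fell by edgeR, against 13.2% and 6.76% of all genes, where DESeq2 had Msrb1 and Selenop lower, and their log2 fold changes ran from -0.73 (Selenop) to 1.26 (Selenow). The 3 others had -0.45 (Selenok), 0.15 (Selenof) and -0.08 (Txnrd1).

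In Hbs1l-/- MEFs the RNA of 1 member rose and that of 2 fell, where 23.1% of 15318 genes were called, and the members' median was -0.02 against -0.01 over all genes. Txnrd2 rose from 9.03, 8.77 and 8.06 to 14, 10.9 and 12.6 CPM (log2 fold change 0.53 ± 0.13, adjusted p = 0.0214). Msrb1 fell from 72.1, 59.9 and 70.1 to 51.6, 47.7 and 48.5 CPM (-0.46 ± 0.10, adjusted p = 0.0137). Selenot, a thioredoxin-like protein of the endoplasmic reticulum, fell from 75.4, 80.9 and 71.9 to 42.5, 62.9 and 60.6 CPM (-0.46 ± 0.14, adjusted p = 0.0426). No mutant library overlapped a control for these genes, nor for 44.3% of all genes, and the Msrb1 call held in every leave-one-out fit. The Txnrd2 call was lost without control 2 (adjusted p = 0.0676), control 3 (0.075) or mutant 3 (0.0566) and with counts scaled from TPM (0.0829). The Selenot call was lost without control 1 (0.0848), 2 (0.133) or 3 (0.0675) or mutant 1 (0.0508), with the replicate block (0.052), with counts scaled from TPM (0.0955) and in one fit of all 11 RNA libraries (0.066).

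In Pelo-/- MEFs, with 2 mutant libraries, 5 members fell at the RNA level and 1 rose, where 32.1% of 14705 genes were called. Their median was -0.38 against -0.01 over all genes. Txnrd1 rose from 243, 219 and 201 CPM to 356 and 349 CPM (log2 fold change 0.69 ± 0.094, adjusted p = 0.00293). Selenot fell from 75.4, 80.9 and 71.9 to 50.8 and 45.3 CPM (-0.65 ± 0.095, adjusted p = 0.00369). Both mutant libraries were beyond all controls for these genes, and both calls held in every leave-one-out fit.

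The other RNA decreases in Pelo-/- MEFs were in Gpx1, from 344–432 to 272 and 303 CPM (-0.44 ± 0.11, adjusted p = 0.0231), Gpx4, from 389–487 to 339 and 338 CPM (-0.39 ± 0.11, 0.0291), Selenok, from 54.0–59.8 to 45.3 and 41.7 CPM (-0.39 ± 0.085, 0.014), and Msrb1, from 59.9–72.1 to 51.3 and 51.9 CPM (-0.37 ± 0.094, 0.0238). They did not overlap the controls, as 62.2% of all genes did not with 3 against 2 libraries. Without Pelo-/- replicate 1 the log2 values were -0.35 for Gpx1, -0.39 for Gpx4, -0.45 for Selenok and -0.36 for Msrb1. Without replicate 2 they were -0.53, -0.40, -0.34 and -0.39. Without Pelo-/- replicate 1 the adjusted p was 0.194 for Gpx1, 0.172 for Gpx4, 0.0768 for Selenok and 0.158 for Msrb1, and without replicate 2 it was 0.105, 0.196, 0.146 and 0.149. These fits called 11.4% and 9.71% of all genes in place of 32.1%. Without control 3 the calls of Gpx1 (0.0615), Gpx4 (0.0739) and Msrb1 (0.0663) were lost as well. All 4 calls were lost with the replicate block (Gpx1 0.0753, Gpx4 0.0835, Selenok 0.0673, Msrb1 0.0957), those of Gpx1 (0.0529), Gpx4 (0.0643) and Msrb1 (0.0545) with counts scaled from TPM, and that of Gpx4 in one fit of all 11 RNA libraries (0.0706).

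**Figure D2:**
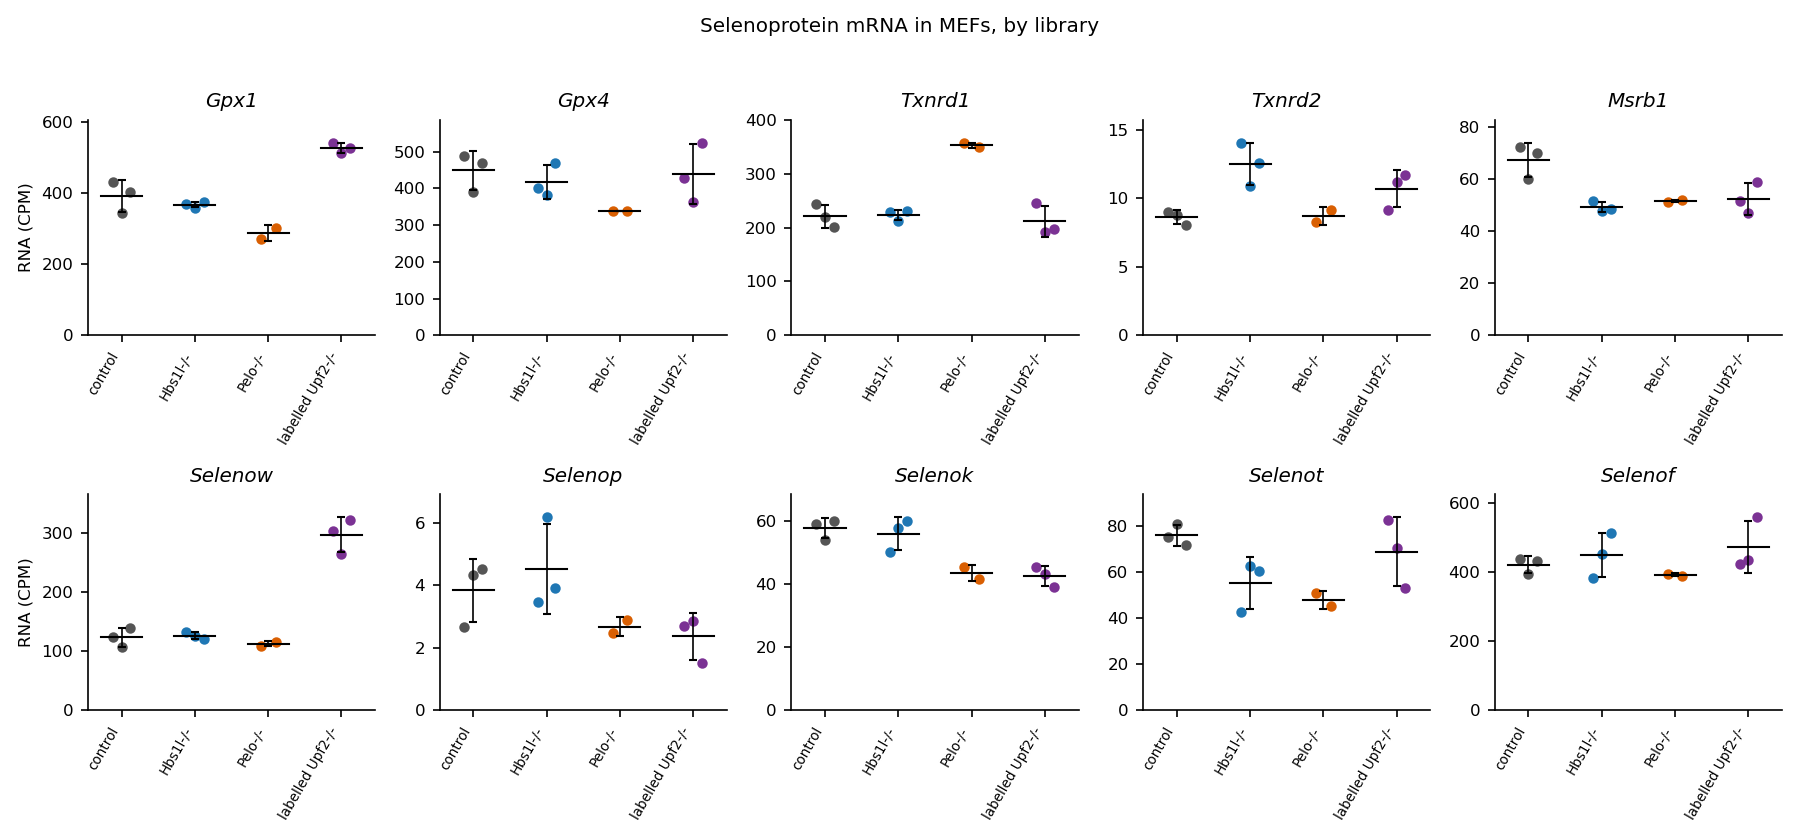
RNA of each member in the 11 MEF libraries (CPM, one panel per gene); points are libraries and bars are mean ± SD. Selenow stands at 264–322 CPM in the libraries labelled Upf2-/- against 107–139 in controls, and Txnrd1 at 349–356 in Pelo-/- MEFs against 201–243.

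In MEFs labelled Upf2-/- the footprints of 2 members rose and those of 5 fell, where 43.4% of 12166 genes were called, and the median was -0.22 over the members and 0.00 over all genes. Selenow footprints rose from 22.0, 22.5 and 21.8 to 34.9, 33.3 and 41.6 CPM (log2 fold change 0.72 ± 0.10, adjusted p = 0.000183). Gpx4 footprints fell from 37.8, 50.7 and 35.1 to 16.9, 23.0 and 18.7 CPM (-1.05 ± 0.15, adjusted p = 0.000237), about 2.07-fold. Msrb1 fell from 71.4, 68.3 and 66.5 to 39.4, 44.0 and 42.0 CPM (-0.71 ± 0.074, adjusted p = 3.03e-05). None of these 3 genes overlapped between groups, as was the case for 54.1% of all genes, and each call held under all 11 alternatives.

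Selenot fell from 67.6–75.1 to 48.9–58.4 CPM (-0.36 ± 0.084, adjusted p = 0.00496) and Txnrd1 from 253–298 to 201–222 CPM (-0.33 ± 0.075, adjusted p = 0.00439), both without overlap and in every leave-one-out fit. Selenok was low throughout, at 6.65, 7.04 and 7.07 CPM in controls and 3.39, 6.18 and 2.89 CPM in mutants (-0.66 ± 0.24, adjusted p = 0.046), and mutant 2 was close to the controls. Gpx1 was at 211, 256 and 184 CPM in controls and 249, 270 and 302 CPM in mutants, so that the groups overlapped (0.34 ± 0.11, adjusted p = 0.0271). The Selenok call was lost without control 1 (adjusted p = 0.0838), 2 (0.0833) or 3 (0.0771) or mutant 1 (0.132) or 3 (0.15) and with DESeq2 (0.0531), and the Gpx1 call without control 1 (0.0907) or 3 (0.0795) or mutant 2 (0.0641) or 3 (0.102). Selenop, Selenof and Txnrd2 did not pass, with log2 fold changes of 0.25, -0.11 and 0.10.

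In Hbs1l-/- MEFs 4 members had fewer footprints and none had more, where 34.1% of 11984 genes were called, and the members' median was -0.24 against -0.01 over all genes. Msrb1 fell from 70.4, 71.0 and 64.4 to 36.6, 39.0 and 37.9 CPM (-0.86 ± 0.081, adjusted p = 5.96e-06), Gpx4 from 45.0, 51.1 and 41.6 to 29.7, 33.2 and 30.8 CPM (-0.57 ± 0.098, adjusted p = 0.000619) and Selenot from 70.4, 72.1 and 73.5 to 62.2, 58.2 and 60 CPM (-0.26 ± 0.073, adjusted p = 0.0151). Their groups did not overlap, nor did those of 46.4% of all genes. Gpx1, at 210, 258 and 179 CPM in controls and 174, 190 and 166 CPM in mutants, overlapped (-0.29 ± 0.11, adjusted p = 0.0448), and its call was lost without control 1 (0.0877) or 2 (0.213) or mutant 1 (0.127) or 3 (0.135). Selenow did not pass in Hbs1l-/- MEFs (-0.31 ± 0.13, adjusted p = 0.0747) but was lower past the threshold with control counts summed over the pools (-0.33, 0.0395) or without mutant 2 (-0.40, 0.0427). Selenop (0.31), Selenok (-0.23), Selenof (-0.03), Txnrd1 (0.06) and Txnrd2 (0.22) did not pass.

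In Pelo-/- MEFs the footprints of 3 members rose and those of 1 fell, where 44.1% of 12486 genes were called, and the members' median was 0.12 against 0.00 over all genes. Selenop rose from 5.37, 3.82 and 4.81 to 13.0, 10.4 and 16.3 CPM (1.51 ± 0.20, adjusted p = 0.000206), the 2.86-fold change being the largest of any member in the 3 MEF footprint comparisons. Txnrd2 rose from 9.07, 8.62 and 8.65 to 12.6, 13.7 and 12.1 CPM (0.54 ± 0.12, adjusted p = 0.00371). Selenow rose from 24.6, 23.9 and 20.9 to 32.0, 28.9 and 31.6 CPM (0.41 ± 0.094, adjusted p = 0.00543). Msrb1 fell from 75.2, 67.2 and 68.6 to 48.7, 52.5 and 45.7 CPM (-0.52 ± 0.08, adjusted p = 0.000525). The groups of these 4 genes did not overlap, nor did those of 55.4% of all genes, and their calls held under all alternatives. Summed macrophage markers, 5 genes of which all were detected, also took 410–587 CPM in these Pelo-/- footprint libraries against 109–146 CPM in their controls (183–242 CPM in Hbs1l-/- and 137–178 CPM in libraries labelled Upf2-/-). In RNA the same markers took 99.1–140 CPM in Pelo-/- and 70.5–96.4 CPM in control libraries. The part of these markers in the Selenop result was not tested.

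**Figure D3:**
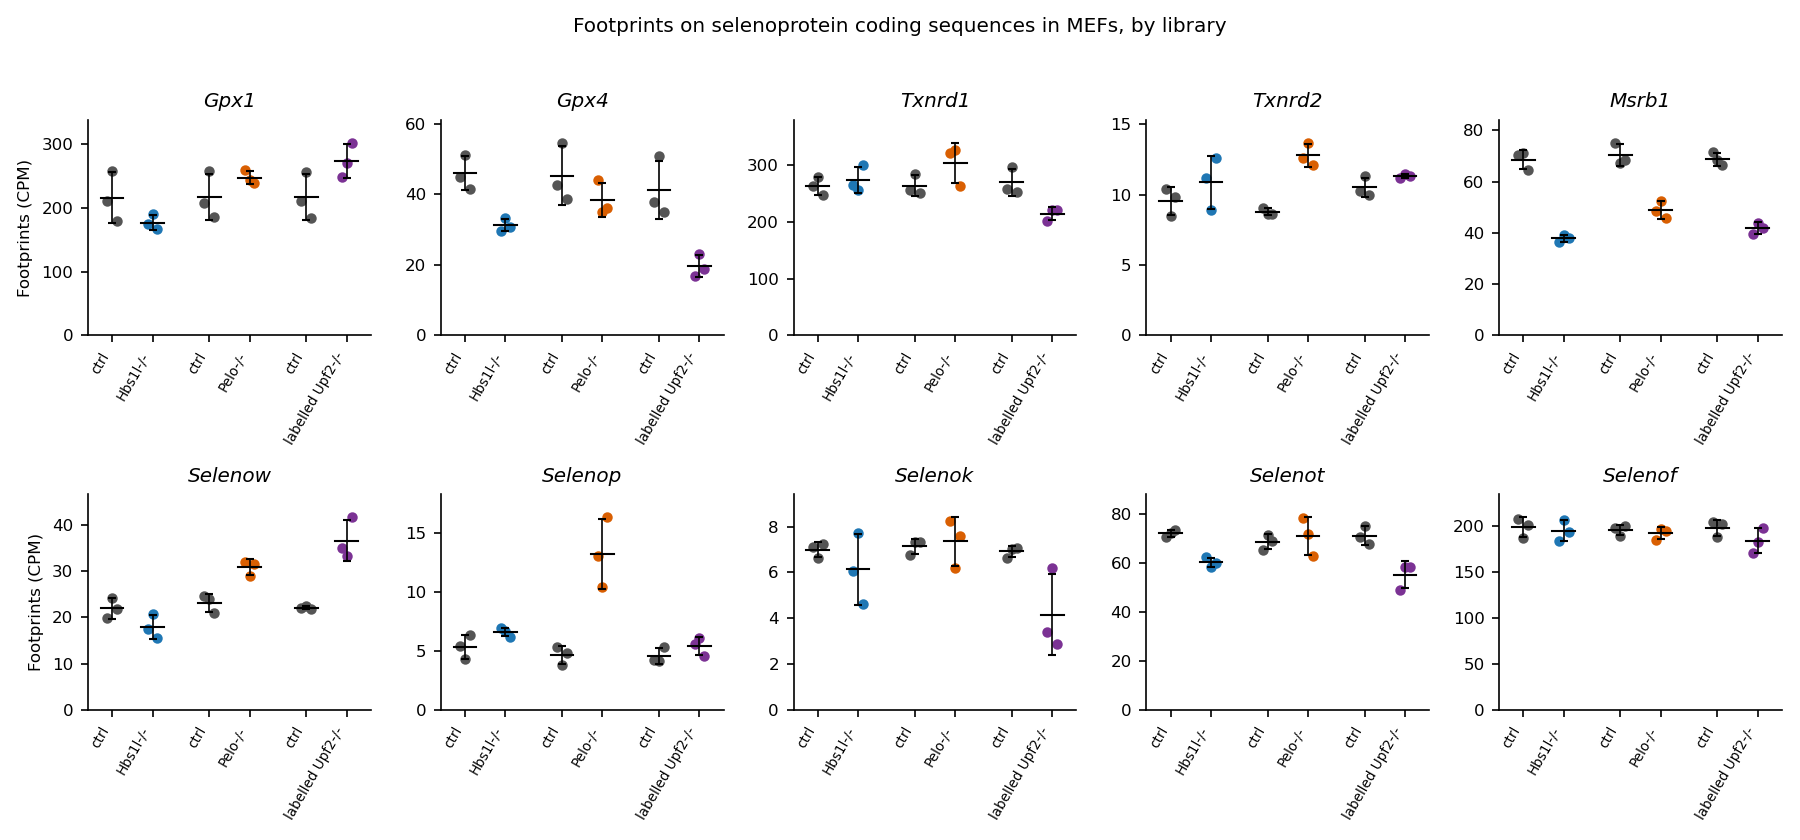
Footprints of each member in MEFs (CPM, one panel per gene, each mutant beside the controls of its pool); points are libraries and bars are mean ± SD. Msrb1 is at 36.6–52.5 CPM in all 9 mutant libraries and at 64.4–75.2 in all controls, while Selenop is raised in Pelo-/- MEFs (10.4–16.3 against 3.82–5.37).

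Translational efficiency (TE), was tested as the difference between the footprint and RNA changes in one model per genotype, and no test compared TE between genotypes. In Pelo-/- MEFs TE rose for 6 members and fell for 1, where 44.6% of 12143 genes were called, and the members' median was 0.49 against 0.04 over all genes. Other genes of the pathway did not go one way: TE rose for 1 and fell for 4 of 10 other selenoproteins (median -0.31), and rose for 9 and fell for none of 18 related redox enzymes without selenocysteine (median 0.38), where 24.3% of all genes rose and 20.4% fell. Selenop had the largest rise on the log2 scale, 2.08 ± 0.34 (SE, adjusted p = 0.000311), with more footprints and an RNA value of -0.53 ± 0.26 that did not pass. That RNA value did pass without control RNA 1 (-0.72, adjusted p = 0.0215). Selenot (0.71 ± 0.14, adjusted p = 0.000961), Gpx1 (0.65 ± 0.17, 0.00764) and Selenok (0.46 ± 0.16, 0.03) rose in TE, with RNA that fell and footprints that did not pass. Footprints of Gpx1 (0.19) did pass without footprint control 2 (0.33, adjusted p = 0.0103). Selenow (0.55 ± 0.15, adjusted p = 0.00773) and Txnrd2 (0.53 ± 0.16, 0.0176) had more footprints with RNA log2 fold changes of -0.12 and 0.03. TE of Txnrd1 fell (-0.46 ± 0.15, adjusted p = 0.0214), with RNA that rose and footprints (0.21 ± 0.092, adjusted p = 0.0948) that did not pass, though they did with the replicate block (0.0263) and without Pelo-/- replicate 3 (0.00796).

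Only 2 Pelo-/- RNA libraries stand behind these TE values. Without Pelo-/- RNA replicate 1 the calls of Gpx1 (log2 value 0.55), Selenok (0.49), Txnrd1 (-0.47) and Txnrd2 (0.43) were lost. Those of Selenok (0.4) and Txnrd1 (-0.48) were lost without Pelo-/- RNA replicate 2. Either fit leaves a single Pelo-/- RNA library, so only its log2 values are given. Without control RNA 3 the calls of Selenok (adjusted p = 0.0556) and Txnrd1 (0.0542) were lost. The Selenok call was also lost without footprint control 1 (0.0775) or Pelo-/- footprint replicate 1 (0.0743) or 3 (0.0635), and that of Txnrd1 without footprint control 2 (0.0552).

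In MEFs labelled Upf2-/- TE fell for 2 members and rose for none, where 20.3% of 12054 genes were called, with a members' median of -0.24 against -0.03 over all genes. Gpx4 TE fell by 1.03 on the log2 scale (SE 0.23, adjusted p = 0.007): its footprints were 2.07-fold lower while its RNA was at 364–524 CPM against 389–487. Selenow TE fell by 0.55 (SE 0.17, adjusted p = 0.0317), with a larger rise in RNA than in footprints. Selenop TE was 0.97 ± 0.35 higher but did not pass (adjusted p = 0.0623). The Gpx4 call held under all 16 alternatives. The Selenow call was lost without control RNA 2 (adjusted p = 0.0711), mutant RNA 3 (0.0528), footprint control 1 (0.0633) or 2 (0.0685) or mutant footprint replicate 1 (0.077) or 2 (0.0962). Without mutant RNA 2, where 23.6% of all genes were called in place of 20.3%, the member calls numbered 4. Selenop was added as higher (1.15, adjusted p = 0.0346) and Msrb1 as lower (-0.45, 0.0488). Selenop also passed without control RNA 1 (0.0274), and Selenok (-0.71, 0.0445) without mutant footprint replicate 2.

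In Hbs1l-/- MEFs no member passed for TE, where 0.0336% of 11907 genes (4 genes) were called by edgeR, and none passed with DESeq2, which called 1.8%. At an unadjusted p under 0.05, 2064 of all genes passed in edgeR, among them Msrb1 (-0.39 ± 0.13, adjusted p = 0.171) and Gpx4 (-0.43 ± 0.16, adjusted p = 0.194). The members' median TE difference was -0.17 against -0.02 over all genes.

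**Figure D4:**
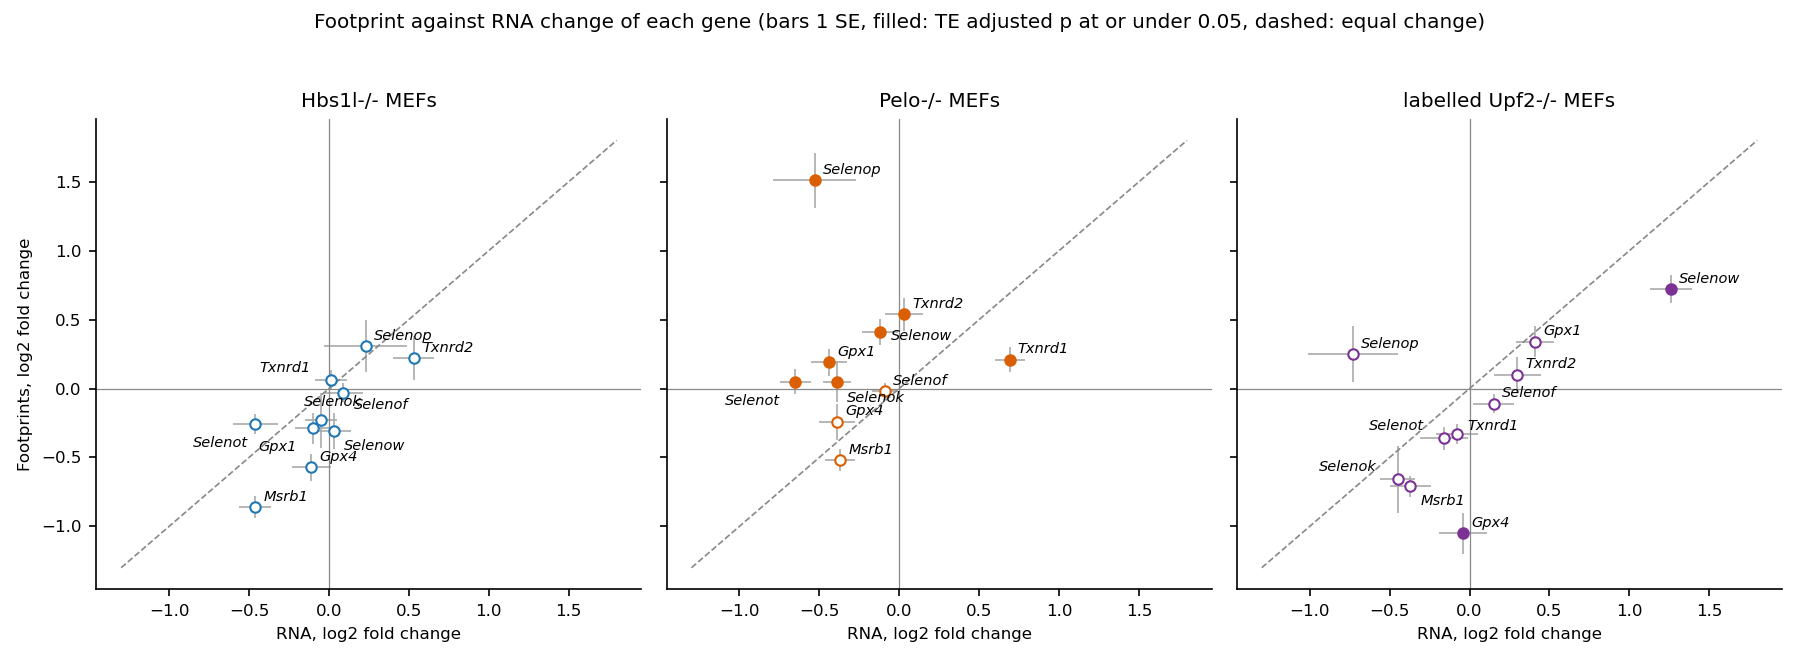
Change in footprints (log2 fold change, vertical) against change in RNA (log2 fold change, horizontal) of each member in the 3 MEF genotypes; bars are 1 SE, filled points passed the TE test and the dashed line marks equal change. In Pelo-/- MEFs 6 filled points lie above the line and Txnrd1 below it, and in MEFs labelled Upf2-/- Gpx4 and Selenow lie below it.

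The footprint changes of the genotypes were then compared with each other in one fit per pair. Between Pelo-/- and Hbs1l-/- MEFs the change of Selenow differed by 0.73 ± 0.16 on the log2 scale (adjusted p = 0.0144; 0.41 against -0.31, the latter not passed) and that of Selenop by 1.21 ± 0.28 (adjusted p = 0.0214; 1.51 against 0.31, the latter not passed), where 5.55% of 12526 genes were called. Selenow also differed between MEFs labelled Upf2-/- and Hbs1l-/- MEFs (1.04 ± 0.16, adjusted p = 0.00158), the only member called in this fit where 4.93% of 12334 genes were called. Gpx1 (0.63 ± 0.18, adjusted p = 0.0513) and Txnrd1 (-0.38 ± 0.11, 0.0536) were just outside the threshold there. Relative to Pelo-/-, MEFs labelled Upf2-/- had lower values for 4 members, where 13.0% of 12675 genes were called: Selenop (-1.27 ± 0.29, adjusted p = 0.0102), Gpx4 (-0.82 ± 0.23, 0.0316), Txnrd1 (-0.54 ± 0.13, 0.0129) and Selenot (-0.41 ± 0.13, 0.0466). Selenow did not pass between these last genotypes (0.31, 95% interval 0.05 to 0.57, adjusted p = 0.153), and Msrb1, lower in each genotype, did not pass in any of the 3 differences (0.34, -0.19 and 0.15).

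These fits take the repeat libraries of the shared control samples as separate controls. With control counts summed over the pools, an alternative chosen after seeing the data that sets mutants of different batches against each other directly, all 7 differences called above kept their calls. Over all genes the share called rose as well, to 19.3% between Pelo-/- and Hbs1l-/-, 29% between the libraries labelled Upf2-/- and Pelo-/- and 15.5% between the former and Hbs1l-/-. Msrb1 then differed between Pelo-/- and Hbs1l-/- MEFs (0.38, adjusted p = 0.00207) and between the libraries labelled Upf2-/- and Pelo-/- (-0.23, 0.0265). Gpx1 passed between Pelo-/- and Hbs1l-/- (0.50, 0.00374) and Selenok between the libraries labelled Upf2-/- and Pelo-/- (-0.77, 0.0268). Between the libraries labelled Upf2-/- and Hbs1l-/-, Gpx1 (0.63, 0.00122), Gpx4 (-0.65, 0.00816) and Txnrd1 (-0.35, 0.0149) joined Selenow, and DESeq2 on the separate libraries called Gpx1 (0.0144) and Txnrd1 (0.0268) there as well.

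Several of these calls were lost in fits that left out 1 library, while the log2 differences kept their sign and most of their size. Selenop between Pelo-/- and Hbs1l-/- MEFs was lost without Hbs1l-/- replicate 3 (adjusted p = 0.0576), Hbs1l control 1 (0.0555) or 3 (0.0603) or Pelo control 2 (0.0525). Gpx4 between the libraries labelled Upf2-/- and Pelo-/- was lost without Pelo-/- replicate 1 (0.0761), Pelo control 1 (0.0764) or 3 (0.0679), mutant 1 (0.0778) or 3 (0.074) labelled Upf2-/- or their control 2 (0.0656). The Gpx4 difference was -0.78 to -0.64 in those fits, which called 9.15% to 11.6% of all genes in place of 13.0%. Selenot in that pair kept its call in 1 of the 12 fits that left out a library, the one without Pelo-/- replicate 3 (0.0134), and had adjusted p values of 0.0515 to 0.114 in the others. The Selenot difference was -0.45 to -0.33 in those others, which called 8.53% to 12.1% of all genes. Gpx1 entered the calls between the libraries labelled Upf2-/- and Hbs1l-/- without Hbs1l control 3 (0.0172) or Upf2 control 2 (0.0135), and Txnrd1 without Hbs1l-/- replicate 2 (0.046), Hbs1l control 2 (0.0447) or Upf2 control 3 (0.0465). Between Pelo-/- and Hbs1l-/-, Gpx1 entered without Pelo control 2 (0.62, 0.0398) and Selenot without Pelo-/- replicate 3 (0.39, 0.0326). Between the libraries labelled Upf2-/- and Pelo-/-, Selenok entered without mutant 2 labelled Upf2-/- (-1.19, 0.0088).

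In Hbs1l-/- embryos no member passed in the edgeR fit with filtered counts and no block, at an adjusted p of at most 0.05, where 1.87% of 11416 genes were called and 2121 genes had an unadjusted p under 0.05. The median log2 fold change was -0.15 over the members and 0.01 over all genes. Selenow footprints were at 76.2, 48.4 and 57.4 CPM in controls and 41.1, 17.6 and 12 CPM in mutants, with every mutant below every control (log2 fold change -1.29 ± 0.34, adjusted p = 0.0689). Gpx1 footprints were at 433, 402 and 494 CPM in controls and 360, 232 and 261 CPM in mutants, also without overlap (-0.64 ± 0.17, adjusted p = 0.0729), as in 23.8% of all genes. In both genes mutant replicate 1 was nearest to the controls. Without it 20.3% of 11376 genes were called in place of 1.87%, among them Selenow with -2.0 (adjusted p = 0.00015), Gpx1 with -0.84 (0.00104) and Selenok with -1.75 (0.029). On all 6 libraries both genes also passed with DESeq2 (Selenow 0.0092, Gpx1 0.0195), which called 2.55% of genes, and, by edgeR, with the replicate block (0.00219, 0.0208, where 4.94% were called) or with no filter on low counts (0.000587, 0.0129, where 4.31% were called).

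The other members of the embryo comparison overlapped between groups. Selenok, at 5.93–7.86 CPM in controls and 1.45–6.66 in mutants, had -0.85 ± 0.49 (adjusted p = 0.368), and the remaining 7 had log2 fold changes from -0.28 (Txnrd2) to 0.14 (Selenot). Markers of primitive erythroid cells, of which all 7 were detected, summed to 10700–13800 CPM in control and 2610–7100 CPM in Hbs1l-/- embryos, and markers of trophoblast and decidua, all 6 detected, to 79.2–125 and 183–1090 CPM. Their part in the Selenow and Gpx1 values was not tested.

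In the Hbs1l cKO cerebellum no member passed by edgeR or DESeq2, where 0.0624% of 14430 genes (9 genes) were called by edgeR and 2.69% of 17698 by DESeq2, and 1936 genes had an unadjusted p under 0.05, and the median was 0.00 over the members and over all genes. Txnrd1 was at 71.8, 69.8 and 72.9 CPM in controls and 96.1, 81.8 and 87.1 CPM in mutants, without overlap (0.30 ± 0.11, adjusted p = 0.283), as in 18.3% of all genes. Selenow, the member with the highest level there, was at 225, 256 and 357 CPM in controls and 235, 348 and 250 CPM in mutants (-0.01, 95% interval -0.43 to 0.41). The other members overlapped and had log2 fold changes from -0.15 (Txnrd2) to 0.07 (Selenok). Hbs1l itself fell only from 37.8–44.7 to 12.8–15.7 CPM in this tissue, and Purkinje cell markers, all 4 detected, summed to 2990–3340 CPM in mutants and 4160–6120 CPM in controls.

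The effect of Hbs1l loss on Msrb1 differed between embryos and MEFs. In embryos Msrb1 was at 26.9, 20.8 and 26.2 CPM in controls and 21.3, 25.4 and 25 CPM in mutants (-0.04 ± 0.22), against the fall of 0.86 in MEFs, a difference of 0.83 ± 0.20 (95% interval 0.44 to 1.22, adjusted p = 0.0183). It was the only member called, where 7.46% of 13062 genes were called. The Msrb1 call was lost without Hbs1l-/- MEF replicate 1 (adjusted p = 0.0568), MEF control 1 (0.0555) or 2 (0.0569) or control embryo 2 (0.0559). Without Hbs1l-/- embryo 1, where 20.9% of 13195 genes were called, the member calls numbered 4, with Selenow (0.000566), Selenok (0.0292) and Gpx1 (0.042) added. Between embryo and cerebellum no member passed by edgeR or DESeq2, where edgeR called 0.732% of 14624 genes and DESeq2 3.23%, and 2298 genes had an unadjusted p under 0.05, with Selenow at -1.26 (95% interval -2.14 to -0.37) and Gpx1 at -0.65 (-1.11 to -0.18). Without Hbs1l-/- embryo 1, where 7.47% of 15027 genes were called, Selenow (0.00963), Gpx1 (0.0293) and Selenok (0.0175) passed there.

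**Figure D5:**
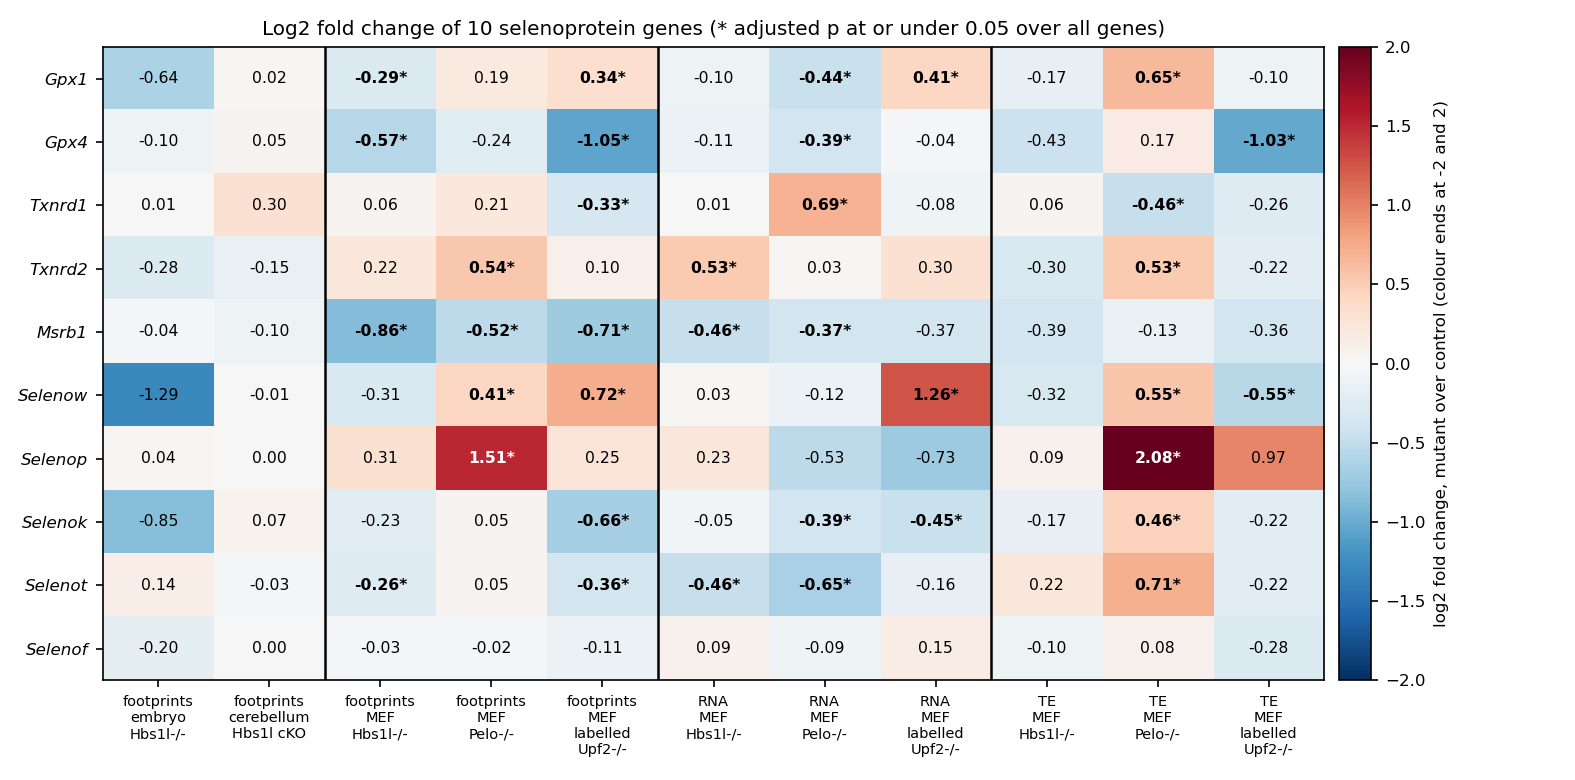
Log2 fold change of each member (rows) in footprints, RNA and TE of each comparison (columns), blue lower and red higher in mutants; a star marks an adjusted p of at most 0.05. The values run from -1.29 (Selenow, embryo footprints, not passed) to 2.08 (Selenop, TE in Pelo-/- MEFs), and neither column of embryo or cerebellum holds a star.

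At the level of single transcripts, 30, 28 and 33 transcripts of the members were tested in Hbs1l-/-, Pelo-/- and MEFs labelled Upf2-/-. None passed in Hbs1l-/- MEFs by edgeR, where 1.31% of 36633 transcripts were called and 6487 had an unadjusted p under 0.05, and 2 passed with DESeq2, which called 3.57%. In Pelo-/- MEFs 1 passed, where 2.37% of 34903 were called: Selenot-201, the transcript that holds 99.1% of Selenot TPM, fell from 30.6, 38.9 and 34.9 to 27.3 and 22.5 TPM (log2 fold change of its counts -0.67 ± 0.098, adjusted p = 0.0463), and the log2 value ran from -0.76 to -0.58 with 1 library left out. None of those 5 smaller fits called any transcript at all (0 of 32961 to 39640, with 4663 to 6676 at an unadjusted p under 0.05), so the loss of this call in them (adjusted p 0.0984 to 0.287) says nothing about its stability, and DESeq2 called it on all 5 libraries (1.63e-06). In MEFs labelled Upf2-/- 3 transcripts rose, where 5.35% of 40620 were called. Selenow-201, the only transcript of Selenow, rose from 199, 200 and 257 to 535, 486 and 511 TPM (1.19 ± 0.14, adjusted p = 0.00953) in every leave-one-out fit as well.

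The other 2 rises were in transcripts of Gpx1 and Gpx4. Gpx1-202, a protein-coding transcript that does not hold the annotated selenocysteine codon, rose from 100, 118 and 81.2 to 163, 178 and 160 TPM (0.70 ± 0.14, adjusted p = 0.0422), while Gpx1-201, which holds it and 30.6% of Gpx1 TPM, was at 170–213 and 249–265 TPM (0.41 ± 0.15, adjusted p = 0.19). Gpx4-201 rose from 0.968, 2.13 and 1.06 to 4.63, 3.70 and 4.93 TPM (1.70 ± 0.36, adjusted p = 0.049), a small part of the 547–733 TPM of Gpx4. The Gpx1-202 call was lost without control 1 (0.0796) or 2 (0.0897) or mutant 1 (0.107), 2 (0.138) or 3 (0.129). The Gpx4-201 call was lost in all 6 fits (controls 1, 0.12, 2, 0.0572 and 3, 0.115, mutants 1, 0.127, 2, 0.107 and 3, 0.145). Those fits called 1.42% to 3.14% of all transcripts, the log2 values ran from 0.58 to 0.79 for Gpx1-202 and from 1.53 to 2.05 for Gpx4-201 in them, and DESeq2 on all 6 libraries called both (0.000207 and 0.000683). Of the members only Selenok and Txnrd2 have an annotated NMD transcript. That of Selenok held 48.6–52.3% of its TPM in all 11 libraries, with 43.9–55.1 TPM in controls and 29.3–38.8 TPM in libraries labelled Upf2-/- (-0.54 ± 0.12, adjusted p = 0.0507), and that of Txnrd2 held at most 2.50%. Estimates for transcripts that share most of their sequence are uncertain.

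Other selenoproteins, 14 genes of which 10 were tested in MEFs, were called in both directions, with 4 or 5 of the 10 called where 34.1% to 44.1% of all genes were. For footprints, 2 rose and 3 fell in Hbs1l-/- MEFs, 1 rose and 3 fell in Pelo-/- MEFs, and 1 rose and 3 fell in MEFs labelled Upf2-/-. In each of the 3, Gpx3, the secreted glutathione peroxidase, Selenom and Selenon, proteins of the endoplasmic reticulum, were lower and Selenoh, a nuclear selenoprotein, was higher. Selenoh footprints were at 7.21–12.5 CPM in controls and 21.4–23.0 CPM in libraries labelled Upf2-/- (1.10 ± 0.18, adjusted p = 0.000465), and its RNA at 37.6–43.4 and 78.6–93.6 CPM (1.09 ± 0.12, adjusted p = 0.000119), 1 of 2 calls among these genes' RNA there. In Pelo-/- RNA 4 of these other selenoproteins rose (Dio3, Txnrd3, Selenoi and Selenon) and 2 fell (Gpx3 and Selenom), with a median of 0.19 against -0.38 over the 10 members, where 15.5% of all genes rose and 16.6% fell. In embryos 1 of 11 passed, Selenoi, an ethanolamine phosphotransferase, from 108–126 to 165–219 CPM (0.66 ± 0.16, adjusted p = 0.0483), where 1.87% of all genes were called, and in cerebella none of 11 passed, where 0.0624% were.

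Of 9 genes for making and inserting selenocysteine, 3 rose at the RNA level in MEFs labelled Upf2-/- and none fell, where 13.2% of all 15983 genes rose and 6.76% fell. They were Trnau1ap, a tRNA-associated protein (26.8–35.3 to 52.8–65.3 CPM, 0.89 ± 0.14, adjusted p = 0.00146), Pstk, the kinase that acts on the serine-charged tRNA (13.9–18.9 to 28–30.7 CPM, 0.88 ± 0.15, adjusted p = 0.00222), and Secisbp2, which binds the SECIS (10.1–10.3 to 15.7–16.8 CPM, 0.66 ± 0.12, adjusted p = 0.00414). TE fell for Pstk and Trnau1ap in the same libraries, where 11.8% of all genes fell and 8.47% rose. For footprints, 2 of the 9 rose and 1 fell in Hbs1l-/- and in Pelo-/- MEFs, and 4 rose and 1 fell in MEFs labelled Upf2-/-, where 17.4%, 22.9% and 22.3% of all genes rose and 16.7%, 21.2% and 21.1% fell. The 4 were Secisbp2, Sephs1, Sepsecs and Sars. Footprints of Secisbp2l, a paralog of Secisbp2, fell in each MEF genotype, to 52.2–61.1 from 80.4–88.6 CPM in Hbs1l-/- MEFs (-0.60 ± 0.083, adjusted p = 0.000116), while Eefsec, the elongation factor for selenocysteine, rose in Hbs1l-/- (0.40 ± 0.11, adjusted p = 0.0119) and Pelo-/- MEFs (0.41 ± 0.081, adjusted p = 0.00256). None of the 9 passed in embryos or cerebella, where 1.87% and 0.0624% of all genes did.

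Of 18 related redox enzymes without selenocysteine, 6 were lower and 2 higher in Hbs1l-/- footprints, 6 and 4 in Pelo-/-, and 10 and 3 in libraries labelled Upf2-/-, where 16.7%, 21.2% and 21.1% of all genes were lower and 17.4%, 22.9% and 22.3% higher. Gpx8, Msrb3 (a relative of Msrb1), Prdx2, Prdx6 (peroxiredoxins) and Sod1 (a superoxide dismutase) were lower in all 3. Prdx6 was at 386–423 CPM in controls and 235–294 CPM in libraries labelled Upf2-/- (-0.62 ± 0.08, adjusted p = 0.000118). Glrx, a glutaredoxin, and Gsr were higher in all 3. In Pelo-/- footprints Glrx rose from 11.1–12.7 to 37.0–48.7 CPM (1.89 ± 0.12, adjusted p = 2.18e-06). Of 18 targets of the oxidative-stress factor NRF2, a factor that is also known to act on Txnrd1, 7 rose and 1 fell in Pelo-/- footprints, where 22.9% of all genes rose and 21.2% fell. Among those that rose was Slc7a11, the cystine transporter (8.05–12.7 to 18.7–26.8 CPM, 1.17 ± 0.18, adjusted p = 0.000563). At the RNA level 4 of the 18 rose and 3 fell in Pelo-/- MEFs, where 15.5% of all genes rose and 16.6% fell, and Slc7a11 was among those that fell. For footprints in Hbs1l-/- MEFs 1 target rose and 2 fell, and in libraries labelled Upf2-/- 3 rose and 3 fell. Of the 2 receptors that take up selenoprotein P, Lrp2 footprints fell in all 3 MEF genotypes, to 35.4–53.1 from 98.7–123 CPM in libraries labelled Upf2-/- (-1.3 ± 0.13, adjusted p = 2.4e-05), while Lrp2 RNA rose in Pelo-/- MEFs (6.82–8.69 to 16.2–17 CPM, 1.17 ± 0.14, adjusted p = 0.00206) and fell in the other 2 genotypes. Lrp8 footprints rose in Hbs1l-/- MEFs (0.41 ± 0.14, adjusted p = 0.0358).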

How the data were processed

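Ribosome footprints and RNA were analysed from the processed tables of 41 libraries. Per the labels and the study's methods, the authors removed rRNA, snoRNA and tRNA reads with Bowtie2 2.2.3, aligned footprints to the mm10 genome with HISAT2 2.1.0 and deposited raw counts of footprints overlapping each coding sequence (featureCounts). For RNA the authors deposited kallisto 0.42.4 expected counts and TPM per transcript. One further Pelo-/- RNA library was left out by the authors as an outlier and was not analysed here.

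Transcript estimates were summed per gene and rounded to whole numbers. Gene names, coding lengths and sequences came from GENCODE M21 (GRCm38); the authors used a later release. No histone gene entered a fit of footprints or TE. Each comparison was fitted with edgeR 4.0.16 (R 4.3.3): filterByExpr, TMM factors and the quasi-likelihood test, two-sided, with Benjamini-Hochberg adjustment over all features and a threshold of 0.05. CPM are counts scaled to TMM-adjusted library size, set over each comparison for footprints, over all 30 footprint libraries for levels and markers and over all 11 libraries for RNA. TE and differences between genotypes are interaction terms. SE is the absolute log2 fold change over the square root of F, and intervals are ± 1.96 SE. Footprint comparisons in tissues used 3 against 3 libraries, as did those in MEFs. The script was tested on simulated data with known changes. Replicates are separate embryo pools, animals or embryos as the labels give them, and p-values measure only the spread between these samples.

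Alternatives were DESeq2 1.42.0, RLE factors, no filter on low counts, the replicate number as a block, each library left out, RNA counts scaled from TPM, all RNA libraries in one fit, MEF footprints with controls summed over the pools and, added after seeing the data, the same for differences between MEF genotypes. The members and lists were chosen with earlier results of these data known. Of the other lists, at most 3 called genes with the largest change and a mean of at least 5 CPM were given values, and transcripts were named from a mean of 1 TPM. Counting strand and multiply mapped reads can affect genes with near-identical copies. Depth limits the lowest members most, Selenok and Selenop in MEFs and Selenok in embryos.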

Additional observations from a re-analysis of the deposited data

Results flagged for a closer look

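One result was marked for a closer look because loss of the same gene had a different effect in 2 sources. The effect of Hbs1l loss on Msrb1 footprints was 0.83 higher in embryos than in MEFs on the log2 scale (SE 0.20, adjusted p = 0.0183 by edgeR's quasi-likelihood test), with -0.04 in embryos and -0.86 in MEFs. All 3 Hbs1l-/- MEF libraries were below all their controls, and the embryo libraries overlapped. Embryos and MEFs were sequenced in separate batches, and constitutive Hbs1l-/- embryos of C57BL/6NJ differ from the tamoxifen-treated Hbs1l cKO MEFs of C57BL/6 in strain and allele too, so source, batch, strain and allele cannot be told apart, and the call did not survive leaving out Hbs1l-/- MEF replicate 1 (adjusted p = 0.0568), its control 1 (0.0555) or 2 (0.0569) or control embryo 2 (0.0559).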

How the results depend on the processing

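Across all members, comparisons and alternatives, 1930 of 2080 results kept their side of the threshold, 98 lost a call, 52 gained one and no called value changed sign. Values near 0 that were not called could change sign. With no member called in embryos, DESeq2, the replicate block and the fit with no filter on low counts each called 2, while the share of all genes called went from 1.87% to 2.55%, 4.94% and 4.31%. RNA calls went from 3 to 1 in Hbs1l-/- MEFs and from 6 to 3 in Pelo-/- MEFs with counts scaled from TPM, and to 2 in Pelo-/- MEFs with the replicate block; over all genes the share called fell from 23.1% to 13.8%, from 32.1% to 18.4% and to 20.1%. In MEFs labelled Upf2-/- they went from 3 to 5 with DESeq2, while the share of all genes called fell. DESeq2 called 3643 of 34617 genes there, and edgeR 3194 of 15983. The call of Gpx1 in these MEFs was lost with counts scaled from TPM (0.0723). For the difference between embryo and MEF, the block raised the calls from 1 to 2 and the share of all genes called from 7.46% to 9.1%. With controls summed over the pools, calls rose from 2 to 4 between Pelo-/- and Hbs1l-/- and from 1 to 4 between the libraries labelled Upf2-/- and Hbs1l-/-, where DESeq2 gave 3 and the block 2, and from 4 to 6 between the libraries labelled Upf2-/- and Pelo-/-. Over all genes summing the controls raised the share called from 5.55% to 19.3%, from 4.93% to 15.5% and from 13.0% to 29%. Between the libraries labelled Upf2-/- and Hbs1l-/-, DESeq2 called 4.32% and the block 3.19% of all genes in place of 4.93%. For transcripts DESeq2 called 2 where edgeR called 0 in Hbs1l-/-, 6 against 1 in Pelo-/- and 7 against 3 in MEFs labelled Upf2-/-, with 3.57%, 4.47% and 5.52% of all transcripts called. The cause of these changes was not tested.

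With each library left out, the footprint fits called 0.247% to 20.3% of all genes in embryos and 0% to 3.84% in cerebella. In MEFs they called 24% to 33.5% for Hbs1l-/-, 33.2% to 41.6% for Pelo-/- and 34.2% to 42.2% in libraries labelled Upf2-/-. Leaving out each library gave 0 to 3 calls of members in embryos and 0 in cerebella. For footprints in Hbs1l-/-, Pelo-/- and MEFs labelled Upf2-/- it gave 3 to 5, 4 to 5 and 5 to 6. For RNA it gave 1 to 3, 2 to 7 and 1 to 3, for TE 0, 3 to 7 and 1 to 4, and for transcripts 0, 0 and 1 to 2. The differences gave 0 to 3 between embryo and cerebellum, 0 to 4 between embryo and MEF, 1 to 3 between Pelo-/- and Hbs1l-/-, 2 to 4 between libraries labelled Upf2-/- and Pelo-/-, and 1 to 2 between those and Hbs1l-/-. Over all genes these fits called 0.0532% to 7.47% between embryo and cerebellum and 3.45% to 20.9% between embryo and MEF. Those between MEF genotypes called 3% to 5.82%, 8.53% to 13.7% and 2.82% to 4.67%, in the same order. With a library left out, RNA fits called 11.1% to 17.8% of all genes in Hbs1l-/- MEFs and 10.6% to 18.8% in those labelled Upf2-/-. In Pelo-/- RNA the share was 22.9% to 32.8% without a control. TE fits called 0% to 0.561% in Hbs1l-/- and 12.5% to 23.6% in MEFs labelled Upf2-/-. With both Pelo-/- RNA libraries kept, they called 38.8% to 45% in Pelo-/- MEFs. Transcript fits called 0% in Hbs1l-/- and 1.42% to 3.14% in MEFs labelled Upf2-/-. Where 1 Pelo-/- RNA library was left, it was assumed to vary like the controls.

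Equal replicate numbers were not taken as pairs in the main fits. Correlations of same-numbered deviations from the group means ran from -0.29 to 0.354 over the comparisons, and in no comparison was every pair over 0.1. In embryos, though, they were 0.066 to 0.103, all above those of other numbers (-0.086 to 0.007). In Hbs1l-/- MEF footprints they were 0.035 to 0.08, against at most 0.032 for other numbers. Weak pairing in these 2 comparisons was not tested. With the block, the calls of Gpx1 (0.0753), Gpx4 (0.0835), Selenok (0.0673) and Msrb1 (0.0957) in Pelo-/- RNA and of Selenot (0.052) in Hbs1l-/- RNA were lost, as were those of Selenok in Pelo-/- TE (0.081) and of Selenot between MEFs labelled Upf2-/- and Pelo-/- MEFs (0.0644). Gained with it were Gpx1 (0.0208) and Selenow (0.00219) in embryos, Txnrd1 (0.0263) in Pelo-/- footprints, Msrb1 (0.0366) in RNA labelled Upf2-/-, Selenow (0.0264) between embryo and MEF, and Gpx1 between Hbs1l-/- and both Pelo-/- (0.0339) and MEFs labelled Upf2-/- (0.0474).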
